A study of Mus musculus with 4 samples.

Results

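The miRNAs described here come from 2 imprinted loci of the mouse genome, the Mest gene on chromosome 6 and the Gnas cluster on chromosome 2. They are mmu-miR-335-5p and mmu-miR-335-3p, the arms of 1 hairpin inside Mest, and mmu-miR-296-5p and mmu-miR-298 (mmu for mouse, left out below), from neighbouring hairpins beside Gnas. They were taken by name, 4 of the 750 miRNA assays in the data, and miR-296-3p, the other arm of the miR-296 hairpin, is given as a further reading of the same locus. Levels were measured by quantitative PCR in lung tissue of 4 groups of mice, with 1 library per group. Neonatal room air mice were 3 days old and neonatal hyperoxia mice, of the same age, had spent 72 h in 95% oxygen begun less than 12 h after birth. Adult room air and adult hyperoxia mice were 2 months old and had the same exposures. The labels name no strain, sex or number of animals, and nursing dams changed between both atmospheres every 24 h. All RNA came from the right lung after the pulmonary artery had been rinsed.

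At an imprinted locus the copy inherited from 1 parent is active and the other is silenced, by DNA methylation set in the germ line. Mest (also Peg1) is transcribed from the paternal copy and promotes fetal growth, and miR-335 is made from its transcript. The Gnas cluster holds overlapping transcripts read from different parental copies, among them Gnas, which encodes the stimulatory G protein alpha subunit, and the paternal antisense transcript Nespas. miR-296 and miR-298 are encoded on its antisense strand. Many imprinted growth genes are active in the fetus and decline after birth. These PCR assays do not tell the parental copies apart.

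The mature sequences are shown because each assay reads 1 arm, with bases 2 to 8 (the seed, which pairs with target RNAs) in capitals, 5′ to 3′, from RefSeq (GRCm38.p6). The miR-298 assay carries no arm in its name, so both arms of that hairpin are given.
miR-335-5p: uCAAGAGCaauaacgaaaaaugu
miR-335-3p: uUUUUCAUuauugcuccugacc
miR-296-5p: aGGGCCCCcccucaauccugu
miR-296-3p: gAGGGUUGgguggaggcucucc
miR-298-5p: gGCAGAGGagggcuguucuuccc
miR-298-3p: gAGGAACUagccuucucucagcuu
No seed was shared: of 1679 mature mouse miRNA names in the RefSeq table, 0 others carried the seed of any of these 6 arms. The GC content was 30.4% in miR-335-5p and 36.4% in miR-335-3p, against 66.7% in miR-296-5p, 68.2% in miR-296-3p, 65.2% in miR-298-5p and 50.0% in miR-298-3p. The seeds overlapped in composition: G and C made up 4 of 7 bases in miR-335-5p and 1 of 7 in miR-335-3p, and 7 of 7 in miR-296-5p, 4 of 7 in miR-296-3p, 5 of 7 in miR-298-5p and 3 of 7 in miR-298-3p.

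The hairpins are shown because they set which assays share a precursor, with mature arms in capitals and the rest in lower case.
Mir335: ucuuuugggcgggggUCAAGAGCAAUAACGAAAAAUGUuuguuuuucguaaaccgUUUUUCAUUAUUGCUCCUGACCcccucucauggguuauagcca
Mir296: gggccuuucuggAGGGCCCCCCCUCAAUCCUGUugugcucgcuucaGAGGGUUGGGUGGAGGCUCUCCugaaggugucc
Mir298: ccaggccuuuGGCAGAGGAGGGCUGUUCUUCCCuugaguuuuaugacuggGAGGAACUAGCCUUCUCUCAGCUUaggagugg
In GRCm38.p6 the Mir335 hairpin lies at chr6:30741299-30741396 on the plus strand, within the span of Mest (chr6:30733506-30748466, plus strand) and 7.8 kb from its start. Whether that position is intronic was not read here, since the reference table gives gene spans without exons. Mir296 (chr2:174267047-174267125) and Mir298 (chr2:174267504-174267585) are both on the minus strand, 378 bases apart. Neither lies inside a listed span of the cluster: 13.7 kb separate Mir298 from the Nespas transcript (listed as Gnasas1) and 16.7 kb separate it from Gnas (chr2:174284320-174346744, plus strand).

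A threshold cycle (Ct) is the PCR cycle at which an assay's signal crosses its threshold; it falls by 1 for each doubling of RNA at perfect amplification. Ct values of 35 or below were taken as detected, and a well that never crossed is deposited as 40. Levels are log2 values against snoRNA202, a small nucleolar RNA, on the same card of 384 wells, so a higher value means more RNA. All 5 assays sit on the first card. Between 468 and 507 miRNA assays were detected per library, with a median Ct of 24.0 to 24.2. Of the markers of lung cell types, 8 or 9 of 9 epithelial miR-200 family assays and 2 of 2 assays of endothelial miR-126 were detected in each library. So were 5 or 6 of 7 muscle and 3 or 4 of 5 brain assays, and 468 to 507 of all 750. Detection alone therefore could not check the tissue label. The technical SD of a difference between 2 libraries, from 4 control RNAs present on both cards (U6, snoRNA135, U87 and Y1), was 0.65 log2 for age in room air, 0.95 for age in hyperoxia, 0.26 for oxygen in neonates and 0.33 for oxygen in adults. It leaves out variation between animals.

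In neonatal lung the arms of miR-335 were readily measured, and in adult lung both were far lower. miR-335-5p, which has been studied as a suppressor of metastasis, crossed its threshold at Ct 17.3 and 17.0 in the neonatal room air and hyperoxia libraries and at Ct 21.3 and 21.1 in the adult ones. Its log2 levels, listed in that order here and below, were -3.26, -3.51, -7.83 and -8.25. Both adult libraries lay well below both neonatal ones. Among the assays detected in each library, ordered by Ct, miR-335-5p was number 45 of 477 in neonatal room air and number 151 of 468 in adult room air. The partner arm miR-335-3p had log2 levels of -4.53, -5.18, -8.95 and -9.18, from Ct values of 18.6, 18.7, 22.4 and 22.0, and showed the same separation by age.

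At the Gnas locus miR-296-5p, described as a miRNA of endothelial cells in blood vessel growth, had Ct values of 21.2, 21.1, 25.1 and 24.6 and log2 levels of -7.13, -7.54, -11.70 and -11.79. Its adult levels were again below both neonatal levels. miR-298 had Ct values of 25.7 and 24.4 in the neonatal libraries and of 34.3 and 40 in the adult ones. Its log2 levels were -11.69 in neonatal room air, -10.83 in neonatal hyperoxia and -20.86 in adult room air, with no crossing in adult hyperoxia. It was thus measured well in both neonatal libraries, at the edge of detection in 1 adult library and not detected in the other. miR-296-3p was a late assay throughout, at Ct 34.2, 31.3, 35.004 (just past the limit) and 40.

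**Figure D1:**
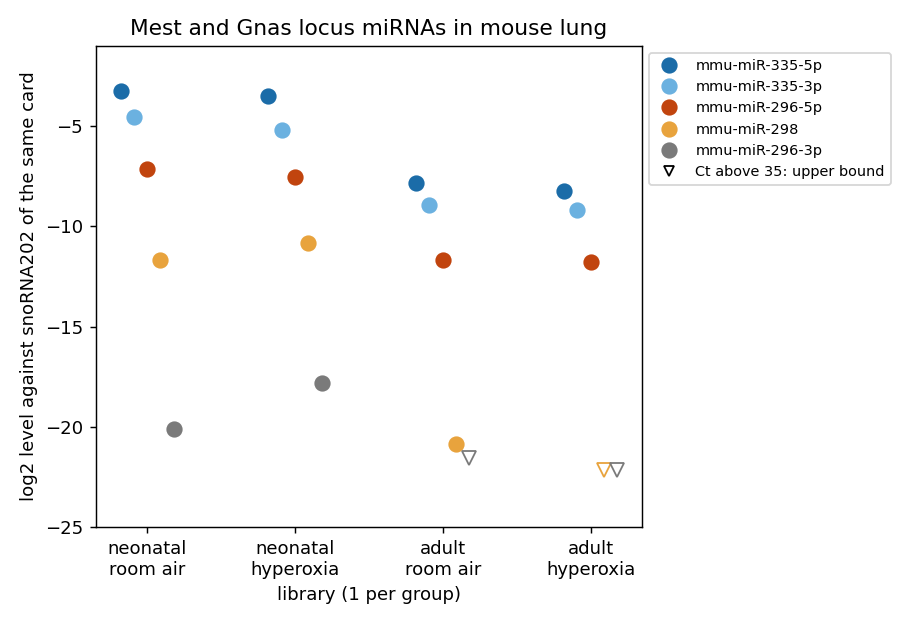
Log2 level against snoRNA202 of the same card (vertical axis) in the 4 libraries (horizontal axis), 1 point per assay and library, with open triangles for upper bounds where Ct was above 35. The 3 assays miR-335-5p, miR-335-3p and miR-296-5p sit at -3.26 to -7.54 in neonates and at -7.83 to -11.79 in adults, and miR-298 drops from -11.69 to -20.86 in room air.

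Between the room air libraries, the adult value was lower by 23.8-fold for miR-335-5p (-4.57 log2, 7.1 technical SDs), 21.4-fold for miR-335-3p (-4.42) and 23.9-fold for miR-296-5p (-4.58). miR-298 was lower by 576-fold (-9.17 log2), a value resting on its adult Ct of 34.3. All 4 were at least 2-fold lower, as were 43% of the 435 assays compared, while 16.6% were at least 2-fold higher and the median was -0.57 log2. miR-298 was the 7th lowest of the 435, and the other 3 members were the 40th to 44th lowest. Before any reference was applied, the Ct of miR-335-5p rose by 3.95 cycles from neonate to adult in room air, while the Ct of snoRNA202 went from 14.05 to 13.43.

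Between the hyperoxia libraries, which share no sample with the room air pair, the differences were -4.74 log2 for miR-335-5p (26.6-fold lower), -3.999 for miR-335-3p and -4.25 for miR-296-5p. For miR-298 the difference was -11.33 log2 or lower, the bound for an adult Ct of 35. The 3 measured differences were 5.0, 4.2 and 4.5 technical SDs. At least 2-fold lower were 49.3% of 450 assays and 10.9% were at least 2-fold higher, with a median of -0.98. The age difference of each of the 3 assays detected in all 4 libraries moved by -0.16 to 0.42 log2 between atmospheres, against a median size of 0.56 over 426 assays. Over the 259 assays with a mean Ct up to 25, where these 3 lie, the median size was 0.44.

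**Figure D2:**
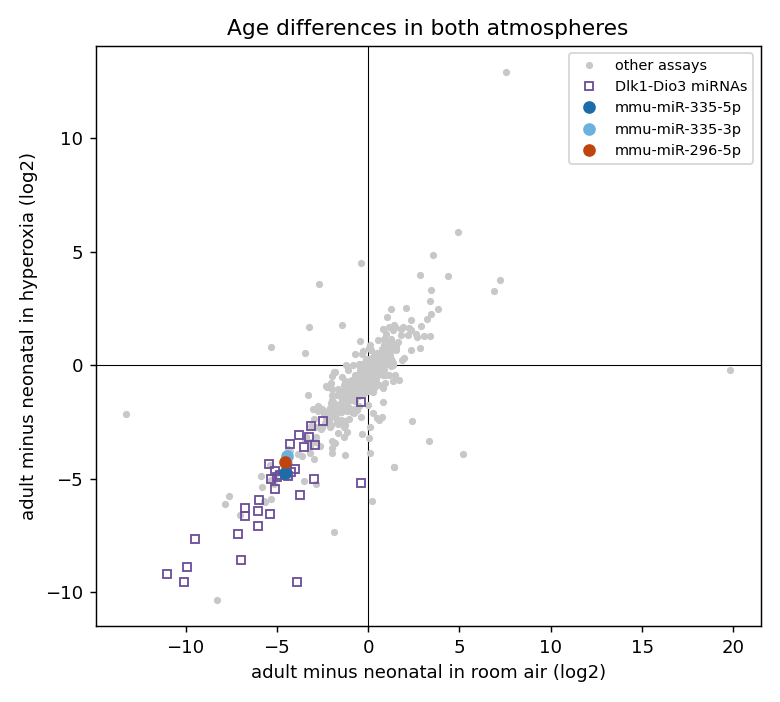
Adult minus neonatal difference in room air (horizontal axis, log2) and in hyperoxia (vertical axis, log2), 1 point per assay detected in all 4 libraries, with Dlk1-Dio3 miRNAs as open squares. miR-335-5p, miR-335-3p and miR-296-5p lie together at -4.42 to -4.58 on the horizontal axis and -3.999 to -4.74 on the vertical axis, among the Dlk1-Dio3 miRNAs.

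An additive limma model of age and oxygen over the 4 libraries was the test this design allows, on the 426 assays detected in all of them. For adult against neonatal lung, miR-335-5p fell by 4.66 ± 0.30 log2 units (± SE), or 25.2-fold, at an adjusted p of 0.00725 (limma, adjusted by Benjamini-Hochberg over all assays). miR-296-5p fell by 4.41 ± 0.31 (limma, adjusted p = 0.00725) and miR-335-3p fell by 4.21 ± 0.32 (limma, adjusted p = 0.00776). Of the 426 assays 30% fell at an adjusted p under 0.05 and 5.63% rose, so a fall alone does not set the members apart. By size, miR-335-5p was the 36th, miR-296-5p the 43rd and miR-335-3p the 48th lowest of 426, and both adult libraries lay below both neonatal ones in 55.6% of assays. miR-298 and miR-296-3p were not in the fit, because they were not detected in every library. The labels do not say whether a library holds 1 animal or several. What the fit takes as noise is the difference between the age effects in room air and in hyperoxia, as given above. These p-values rest on that spread, shared over all assays, which may be technical. They do not measure variation between animals of the same age.

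The size of the fall depended on the reference RNA, and its direction did not. With U6 as the reference the fitted values were -1.84 log2 for miR-335-5p (adjusted p = 0.0157), -1.40 for miR-335-3p (adjusted p = 0.0432) and -1.60 for miR-296-5p (adjusted p = 0.0298; limma). With each card centred on its median they were -3.25, -2.81 and -3.01. Against snoRNA202, U6 itself was at -2.65 log2 on the first card for adult minus neonatal room air, and the median of all 426 assays moved from -0.84 with snoRNA202 to 1.19 with U6. Of the 426 assays 16.7% then fell and 46% rose, against 30% and 5.63% with snoRNA202. Under each of the 6 references the 3 members lay below the median of all assays. A new reference shifts all assays of a card in a library together, so this could hardly have come out otherwise.

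**Figure D3:**
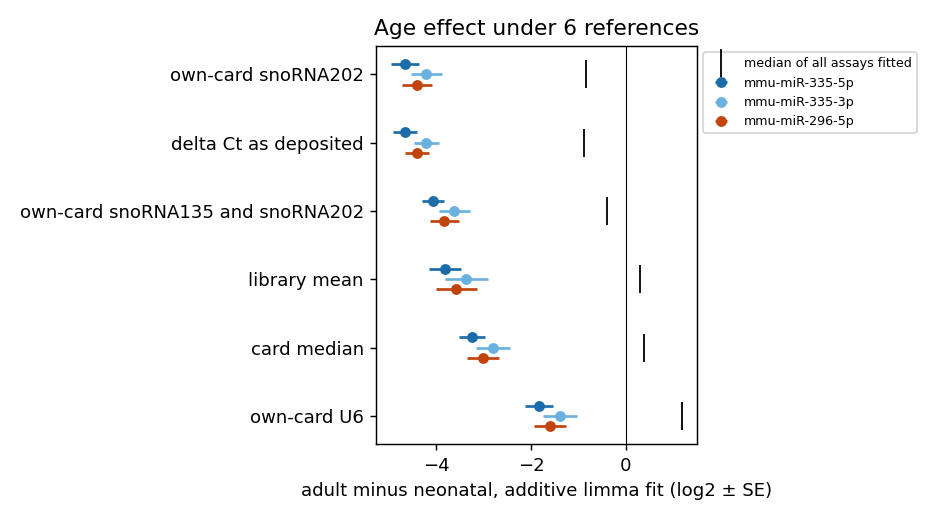
Fitted adult minus neonatal effect (horizontal axis, log2, bars are the SE of the limma fit) of 3 miRNAs under 6 references (rows), with a black tick at the median of all 426 assays. All points are below 0, from -4.66 for miR-335-5p with snoRNA202 to -1.40 for miR-335-3p with U6.

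The loci were contrasted through the difference between 2 assays of the same library, which cancels the reference because they share a card. The level of an assay depends on its own primers, so only the change of such a difference between libraries is read. The mean of the miR-335 arms minus miR-296-5p was 3.23 and 3.19 log2 in the neonatal libraries kept in room air and hyperoxia, and 3.31 and 3.08 in the adult ones. It changed with age by 0.08 in room air and by -0.12 in hyperoxia, each 0.12 technical SDs. The technical SD was read against snoRNA202, which cancels here, so it is only a rough scale for this and the contrasts below. By that scale, 0.65 in room air and 0.95 in hyperoxia, the falls of miR-296-5p and the miR-335 arms could not be told apart. This does not show that they are equal.

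Within each locus the picture differed. For the arms of miR-335, miR-335-5p minus miR-335-3p was 1.28 and 1.67 log2 in neonates and 1.12 and 0.93 in adults, room air before hyperoxia. With age this changed by -0.16 in room air and -0.74 in hyperoxia, both under the technical SD. With oxygen it changed by 0.39 in neonates, 1.53 technical SDs, and by -0.19 in adults, 0.58 technical SDs. By contrast miR-298 minus miR-296-5p, from hairpins 378 bases apart on 1 strand, went from -4.56 in neonatal to -9.16 in adult room air. That change of -4.59 log2 was 7.09 technical SDs, and in hyperoxia it was -7.07 or lower. These changes were not tested, and those of miR-298 rest on its late Ct of 34.3 and its missing crossing in adults. For miR-296-3p the adult readings were past the limit, so its level against miR-296-5p has no value in adults.

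Late assays varied more between atmospheres. Of the 32 assays with a mean Ct of 30 to 35, 68.8% had age differences that differed between atmospheres by at least 1 log2 unit, against 19.7% of the 259 assays with a mean Ct up to 25. miR-335-5p, miR-335-3p and miR-296-5p have Ct values of 17.0 to 25.1. miR-298 in adults and miR-296-3p in all libraries lie in the late range.

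After hyperoxia the 3 members with early Ct values differed from room air by less than 1 log2 unit at both ages. In neonates, hyperoxia minus room air was -0.26 log2 for miR-335-5p, -0.65 for miR-335-3p and -0.41 for miR-296-5p, which is 1.0, 2.5 and 1.6 technical SDs, and 0.85 for miR-298 (3.3 technical SDs). None of the 4 reached 2-fold, where 8.53% of 469 assays were 2-fold lower and 13.6% were 2-fold higher. Within the Gnas pair miR-298 minus miR-296-5p was higher by 1.27 in the neonatal hyperoxia library, 4.96 technical SDs on the rough scale named above. miR-298 itself was number 389 of 469 from the lowest, and how many other pairs shift as much was not counted. The assay of miR-296-3p was 2.34 higher in neonatal hyperoxia, from Ct 34.2 to 31.3.

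In adults the differences were -0.42 log2 for miR-335-5p, -0.23 for miR-335-3p and -0.09 for miR-296-5p, or 1.3, 0.7 and 0.3 technical SDs. With each library centred on its mean they were 0.25, 0.44 and 0.58, so these adult directions followed the reference. For miR-298 it was -1.30 or lower, a bound that starts from Ct 34.3. Of 448 assays 8.26% were 2-fold lower and 3.79% were 2-fold higher. In the additive fit the oxygen effect was -0.34 ± 0.30 log2 for miR-335-5p, -0.44 ± 0.32 for miR-335-3p and -0.25 ± 0.31 for miR-296-5p (limma, adjusted p = 0.988 for each). That fit called 0 of 426 assays for oxygen (0% in each direction), and 13 had an unadjusted p under 0.05.

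**Figure D4:**
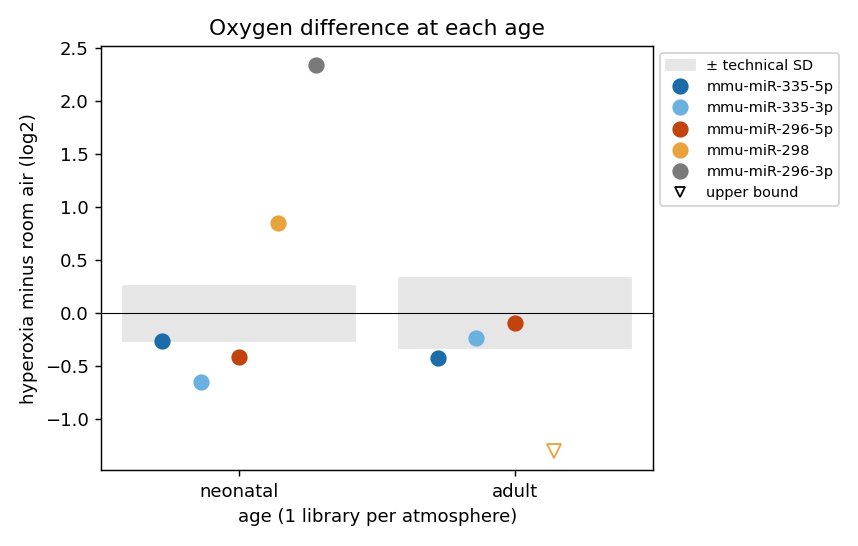
Hyperoxia minus room air difference (vertical axis, log2) in neonates and adults (horizontal axis), 1 point per assay, grey bands for ± the technical SD and an open triangle for an upper bound. miR-335-5p, miR-335-3p and miR-296-5p lie between -0.65 and -0.09 at both ages, while miR-298 is at 0.85 in neonates and at -1.30 or lower in adults.

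The profiles of both loci over the 4 libraries were also compared with those of all other assays. Likeness was the root mean square distance between profiles centred on their own mean, against 380 other mouse-named assays detected in all libraries. The closest profile to miR-335-3p was that of miR-296-5p (0.14 log2), closer than its own partner arm, which ranked 5th (0.27). Both distances were near or below the technical SDs of a difference between libraries, 0.26 to 0.95 log2, again only a rough scale. The order of such close profiles over 4 libraries without replicates was therefore not resolved. Whether miR-335-3p is more like miR-296-5p than its partner arm was not tested. The closest to miR-296-5p were miR-335-3p (0.14) and miR-335-5p (0.18). For miR-335-5p they were miR-409-3p (0.17), miR-296-5p (0.18) and miR-136 (0.20), the first and last from the Dlk1-Dio3 locus. miR-127, also of Dlk1-Dio3, was close to miR-335-3p (0.19), and the passenger strand miR-130b* was the third for miR-335-3p (0.27) and for miR-296-5p (0.25). The age effects of these other assays were -4.95 log2 for miR-409-3p, -4.87 for miR-136, -4.04 for miR-130b* and -3.89 for miR-127, near those of the members. These assays were picked by profile over the same libraries, and the members' profiles differ mostly by age. Such values therefore follow from the choice and are no separate result.

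Other imprinted miRNAs were compared as lists. Dlk1-Dio3, on chromosome 12, is a maternally expressed miRNA cluster. On its proximal side 8 of 9 fitted assays fell with age (limma), with a median of -4.65 log2 and a range from -9.81 (miR-431) to -3.21 (miR-337-5p). On its distal side 22 of 24 fell, with a median of -5.06 and a range from -10.10 (miR-370) to -1.01 (miR-381, not called). Of all 426 assays 30% fell, and their median was -0.84. With U6 as the reference 6 of 9 and 19 of 24 fell, with medians of -2.06 and -2.42, and 1 distal assay rose, where 16.7% of all assays fell. The 3 fitted members lay inside both ranges: 4 proximal and 16 distal assays were lower than each of them, and 3 and 7 were higher. These ranges, medians and counts cover the 9 of 20 proximal and 24 of 47 distal assays detected in all 4 libraries. They leave out assays detected at 1 age only. From H19, a maternally expressed imprinted RNA, miR-675-3p had a Ct of 26.5 and 25.2 in the neonatal libraries and of 40 in both adult ones, which puts the age difference at -9.08 log2 or lower in room air and -10.51 or lower in hyperoxia. miR-675-5p never crossed its threshold, and miR-483*, from the imprinted gene Igf2, was past Ct 35 in all 4 libraries.

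The neighbours of miR-335 on chromosome 6 had no common direction with age against snoRNA202. Within 5 Mb of Mir335 there were 11 assays of other hairpins, 8 of them fitted, of which 1 fell and 3 rose (limma), against 30% and 5.63% of all assays. To one side, 321.4 kb away, lies the miR-29a and miR-29b-1 pair, repressors of collagen and other matrix genes. miR-29a rose by 3.09 ± 0.34 log2 (limma, adjusted p = 0.0142), its passenger strand miR-29a* by 3.37 and miR-29b, which has a copy of its hairpin on another chromosome as well, by 5.49 ± 1.02 (limma, adjusted p = 0.038; 0.0604 with the deposited delta Ct). To the other side, 571.6 to 575.4 kb away, lies the miR-183, miR-96 and miR-182 cluster, known from sensory cells. miR-182 fell by 1.67 ± 0.31 (limma, adjusted p = 0.0374) but was called higher with U6 (1.15, adjusted p = 0.0431). miR-183 was at -1.72 (adjusted p = 0.0734), miR-183* at -0.61, miR-96 at 0.36 (adjusted p = 0.484; limma) and miR-29b* at -0.36. With U6 miR-96 was called higher (3.17, limma adjusted p = 0.00809), as it was with each card centred on its median (1.76, adjusted p = 0.0197), and miR-183 at 1.10 and miR-29b* at 0.53 lay above 0. Of these 8 assays 0 fell under 4 of the 6 references, where 5 rose with U6, 3 with snoRNA135 and snoRNA202, 3 with the library mean and 4 with the card median. Not fitted were miR-592, miR-129-3p and miR-129-5p. miR-592 was past the limit in both neonatal libraries (Ct 35.2 and 35.9) and detected in both adult ones (28.1 and 30.2). miR-129-3p was late where it was detected (Ct 34.3, 34.0, 40 and 33.4), and miR-129-5p never crossed its threshold. For Mir296 the reference table lists 1 further hairpin within 5 Mb, Mir6340, and it has no assay here.

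**Figure D5:**
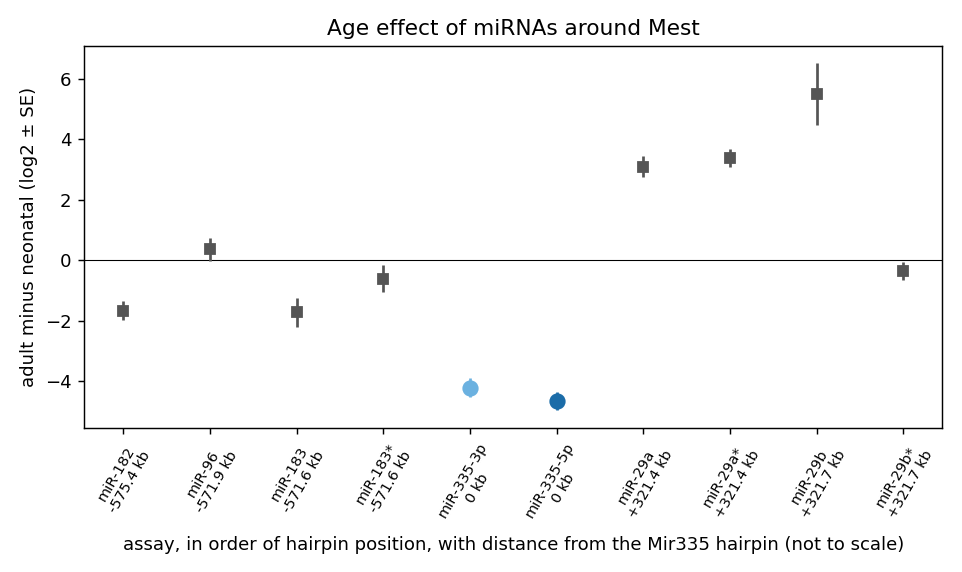
Fitted adult minus neonatal effect (vertical axis, log2, bars are the SE of the limma fit) of miRNAs around Mest, in order of hairpin position with the distance from Mir335 under each name (horizontal axis, not to scale). The miR-335 arms are at -4.66 and -4.21. Each side holds both signs: miR-182 is at -1.67 and miR-96 at 0.36 on one, and miR-29a at 3.09 and miR-29b* at -0.36 on the other.

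Few cell type markers were called for age against snoRNA202. In bulk lung, fewer cells of a type and less RNA per cell cannot be told apart. None of 8 epithelial, 2 endothelial, 4 leukocyte or 3 erythroid assays was called for age (limma), while 1 of 5 striated muscle and 1 of 3 brain assays fell, against 30% of all assays that fell and 5.63% that rose. With U6, 5, 2, 4 and 2 of the same epithelial, endothelial, leukocyte and erythroid assays rose, 4 muscle assays rose and 1 fell, and 1 brain assay rose and 0 fell, against 46% of all assays that rose and 16.7% that fell. By pair, 1 of 8 epithelial, 2 of 3 erythroid and 1 of 5 muscle assays lay 2-fold or more below the neonate in adult room air (43% of all assays), and 5 of 9, 0 of 3 and 5 of 6 in hyperoxia (49.3%). So did 1 of 3 brain assays in room air and 1 of 4 in hyperoxia. At least 2-fold higher were 2 of 4 leukocyte and 0 of 3 brain assays in room air (16.6% of all assays). In hyperoxia these were 0 of 4 and 1 of 4 (10.9%). The summed log2 level of the endothelial assays was 3.21 and 3.66 in neonates and 3.15 and 3.13 in adults, that of the epithelial assays -0.65 and 0.22 against -0.18 and -1.02, and that of the muscle assays -4.97 and -3.75 against -4.21 and -4.78, in room air and hyperoxia. The liver miRNA miR-122 crossed past the limit in neonatal room air (Ct 36.0), while the hyperoxia libraries stood at Ct 27.6 in neonates and 28.3 in adults and adult room air at 32.8, which put adult hyperoxia 3.95 log2 above adult room air. The part of these in the members' fall was not tested.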

How the data were processed

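Total RNA was reverse transcribed with Megaplex primers (sets A and B), preamplified and read by TaqMan assays on 2 cards of 384 wells, per the labels' protocols. The authors deposited threshold cycles and, per the file headers, Ct minus the Ct of snoRNA202, both on a log2 scale; the sources used here do not name the software, threshold or baseline. The 768 Ct values per library are identical in both deposited tables. Of 768 wells, 750 hold miRNA assays and 18 controls. The level used here is the Ct of snoRNA202 on the same card minus the assay's Ct; for all 4 members and miR-296-3p it equals the deposited value with its sign turned.

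Groups came from the sample titles. An assay was compared where Ct was 35 or below in both libraries, and counted at 1 log2 unit. The technical SD is the root mean square gap between cards of 4 control RNAs divided by the square root of 2. The additive model used limma 3.58.1 (lmFit, eBayes; R 4.3.3) with Benjamini-Hochberg adjustment over 426 assays, 1 residual and 2.16 prior degrees of freedom. It was tested on simulated data that had the same noise in every assay and no oxygen effect. That simulation cannot show how the fit behaves with the uneven noise of these assays. The model treats any difference in oxygen response between ages as noise. Named are the members, the other assay of their hairpins, the 3 nearest profiles per fitted member and the hairpins within 5 Mb. Lists hold mouse-named assays of all arms. Members and lists were chosen with earlier results of these data known. Row L of the first card, whose adult room air wells correlate poorly with the other libraries (r = 0.302), holds none of the members. It does hold the Dlk1-Dio3 assays of miR-539, miR-540, miR-543 and miR-544. Of these only miR-543 was fitted, with age differences of -0.41 log2 in room air and -5.19 in hyperoxia, and it was not called. Sequences are from RefSeq. Alternatives were 5 other references, Ct limits of 32 and 38, no filter, and models with age or oxygen alone; Ct without a reference, the first card alone and leaving out row L were added after the data were seen.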

Additional observations from a re-analysis of the deposited data

Results flagged for a closer look

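miR-298 stood out because its oxygen difference had opposite signs at the 2 ages: 0.85 log2 in neonates and -1.30 or lower in adults. Each age has 1 library per atmosphere, and the difference between ages was not tested. The neonatal value compares Ct 25.7 with 24.4; the adult bound starts from Ct 34.3 in room air and takes Ct 35 for hyperoxia, where no crossing was read, and it would be -4.30 with a limit of Ct 38.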

How the results depend on the processing

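The 3 fitted members were called lower with age under all 12 settings of the fit, at adjusted p from 0.00169 to 0.0432 (limma). Their values ran from -4.66 to -1.84 for miR-335-5p, -4.21 to -1.40 for miR-335-3p and -4.41 to -1.60 for miR-296-5p. These values moved only with U6, snoRNA135 and snoRNA202, the library mean or the card median as reference. The other settings could change only their error and adjusted p. In each age pair the fitted members were at least 2-fold lower under all 9 settings, and miR-298 under the 8 that measured it in room air. Of those settings, the deposited delta Ct and the Ct limits left the members' measured differences as they were. The smallest differences came with U6 in the hyperoxia pair: -1.76 log2 for miR-335-5p, -1.02 for miR-335-3p and -1.28 for miR-296-5p. The last 2 lay near the 1 log2 cut and near the technical SD of that pair, 0.95 against snoRNA202. With a Ct limit of 32, miR-298 had no adult value. With no filter, undetected wells set to Ct 40, miR-298 entered the fit at -12.75 (adjusted p = 0.113). The number of members 2-fold changed by oxygen in neonates was 0 and became 1 (miR-298, 1.38) when Ct was used with no reference. Over all 426 assays the fit called 128 lower and 24 higher against snoRNA202, 71 and 196 against U6, and 112 and 50 against the mean of snoRNA135 and snoRNA202. Centring libraries on the mean gave 77 and 99, and centring cards on the median gave 84 lower and 31.9% higher. It called 164 and 39 with age alone, 72 and 6 of 750 with no filter, and 61 and 11 of 236 on the first card alone. The shares of 2-fold lower and higher assays in room air went from 43% and 16.6% to 18.6% and 57% with U6, and in hyperoxia from 49.3% and 10.9% to 25.3% and 49.6%. The contrast of the loci does not depend on the reference, since its assays share a card. No paired analysis was possible because each group has 1 library. Precision is limited by 1 library per group and by late Ct values.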
